A study of Mus musculus with 20 samples.

Results

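The genes described here encode complex I of the mitochondrial respiratory chain and the factors that assemble it. Members were all genes whose symbol in the array's platform annotation begins with Nduf, except Ndufa4 and Ndufa4l2, and that were measured by a probe set assigned to 1 gene. This gave 42 of the 18193 genes measured in that way, with 86 probe sets. They fell into 6 core subunit genes (Ndufs1, Ndufs3, Ndufs7, Ndufs8, Ndufv1 and Ndufv2), 28 accessory subunit genes and 8 assembly factor genes (symbols beginning with Ndufaf). Total RNA came from frozen ventricles, and each array measured the heart of a single male mouse of the inbred strain C57BL/6J. Old mice were 25 to 28 months of age (n = 10) and young mice 4 to 6 months (n = 10); the labels name no genetic change or treatment. Values are log2 signals of Affymetrix MOE430 2.0 arrays, a one-colour oligonucleotide platform, and all differences are old minus young on this scale.

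Complex I is an L-shaped enzyme of the inner mitochondrial membrane that takes electrons from NADH, passes them along a flavin and a chain of iron-sulphur clusters to ubiquinone, and pumps protons with the energy released. Its core subunits carry out catalysis and are shared with bacterial relatives of the enzyme. Nuclear DNA encodes the core subunits of the matrix arm, and mitochondrial DNA encodes those of the membrane arm. The accessory subunits surround this core and stabilise it, and assembly factors build the modules and are not part of the finished enzyme. The heart, which works on oxidative metabolism, is rich in the complex.

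Array medians over all probe sets lay between 3.07 and 3.15 in old and between 3.09 and 3.20 in young arrays, and no arrays held identical values. Transcripts of atrial muscle were present in old arrays labelled ventricle. Myl7, the atrial regulatory myosin light chain, ran from 2.36 through a median of 13.65 to 14.55 in old arrays, against 2.38 through 2.41 to 2.44 in young ones, and exceeded 10 in 7 old arrays and in no young array. Among the 4 atrial markers, 2 were below a log2 value of 4 in every young array, the summed linear signal ran from 1607 to 94948 in old and from 969 to 5307 in young, and both tested markers were higher in old. Clustering of the arrays' deviations from their group means, with the Nduf genes left out, gave 5 array sets of 2 old and 2 young arrays each. The labels name no batch, so what the sets stand for is not known. The difference between the 3′ and 5′ probe sets of Gapdh, a measure of RNA integrity, was −0.10 ± 0.06 in old arrays and −0.11 ± 0.04 in young arrays (SD, n = 10 each). Old replicate 8 was the lowest of all arrays for 34 of the 41 tested members. Results are therefore also given with the array set as a block, with an index of atrial transcripts as a covariate, and without the 7 old arrays. Because the index was high in old arrays alone, the atrial transcripts and age can be separated only in part.

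Part of the complex I transcripts were lower in old hearts. Of the 41 members tested, 11 fell and 0 rose in the limma fit over all 9275 genes (adjusted p under 0.05). Over all tested genes the share called lower was 7.49% and the share called higher was 11.2%. Of all called genes 59.9% were rises, against 43.2% after quantile normalization, where 14 members were called lower. The members' share called lower was 26.8%. A negative estimate was found for 40 of the 41 members, against 48.7% of all tested genes, and the median difference of the members was −0.22, against 0.01 over all genes. The untested member, Ndufb4, was measured by a dim probe set at a mean of 2.13 in old and 2.14 in young arrays, and no array exceeded 4. In a bulk sample, less RNA per cell and fewer cells of a type cannot be told apart. Of the 14 cardiomyocyte markers, 0 were called in either direction and 11 had estimates below 0. Their median difference was −0.03, and the differences ran from −0.32 to 0.06. Their summed linear signal ran from 342000 to 402864 in old and from 362603 to 422350 in young arrays. Of the markers of other cells, 8 of 10 for macrophages rose (median 0.73, summed linear signal 4574 to 9129 in old, 2860 to 4468 in young) and 4 of 8 for fibroblasts (median 0.48, 8841 to 17040 in old, 7465 to 11323 in young). For endothelial cells 1 of 6 was called higher and 2 had estimates below 0 (median 0.13, 1705 to 3445 in old, 1895 to 2708 in young), and for smooth muscle 1 of 4 was called higher (median 1.20, 791 to 13918 in old, 567 to 2736 in young). The share of all genes called higher was 11.2%. None of these markers lay under 4 in every array of a group. The adipocyte list had 1 tested member of 4, which was not called, and the summed signal of its 2 markers on the array ran from 18698 to 39561 in old and from 18164 to 21362 in young, with 1 marker below 4 in every young array. Their part in the fall of the Nduf genes was not tested.

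**Figure D1:**
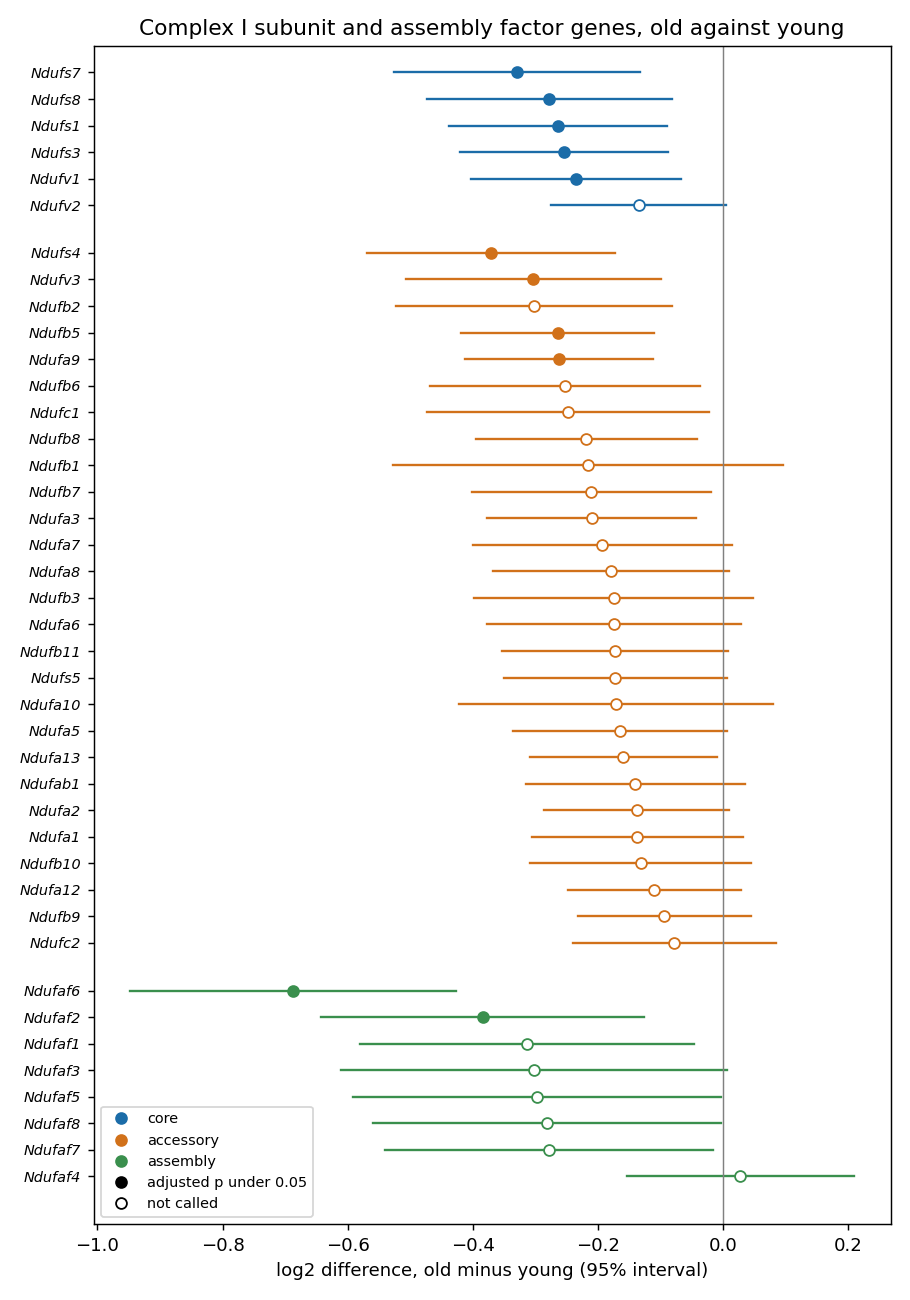
Log2 difference (old minus young, x axis) of the 41 tested Nduf genes with its 95% interval, grouped from top to bottom into core, accessory and assembly genes (10 old and 10 young arrays). Filled points passed the limma test, and 11 genes did so, all to the left of 0; only Ndufaf4 has an estimate above 0.

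The count of 11 depended on how the arrays were compared. With the array set as a block, 30 members fell and 0 rose, where 16.7% of all genes were called lower and 19.4% higher. With the atrial index as a covariate, 0 members were called lower and 0 higher, where 0.927% and 2.81% of all genes were. With the index and the set together, 1 member was called lower and 0 higher, where 1.89% and 4.36% of all genes were. Without the 7 old arrays, which leaves 3 old against 10 young arrays, 0 members were called lower and 0 higher, where 0.679% and 2.25% of all genes were. The direction changed less than the calls did. Estimates were below 0 for 40 of 41 members with the index, for 39 with index and set, and for 35 without the 7 arrays, and the members' medians were −0.16, −0.11 and −0.11. Leaving out 1 array at a time gave between 6 and 13 members called lower. The count was 6 without old replicate 9 and without young replicate 12, 7 without old replicate 5 and without young replicate 14, and 8 without old replicate 8. After centring each array on its median it was 5.

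Calls were spread over all 3 classes. Of the 6 core genes, 5 fell and 0 rose, their median difference was −0.26, and the estimates lay between −0.33 and −0.13. Among the 27 tested accessory genes 4 fell (median −0.18), and among the 8 assembly genes 2 fell (median −0.30). Of all tested genes 7.49% were called lower and 11.2% higher. The differences between the classes in calls and medians were not tested, since the classes are small and share the same arrays. With the atrial index the medians were −0.17 for core, −0.15 for accessory and −0.29 for assembly genes. Without the 7 old arrays they were −0.13 for core, −0.10 for accessory and −0.19 for assembly genes. In all of these fits the accessory median was the closest of the 3 to 0. The classes also differ in signal level. Means in old arrays ran from 7.33 (Ndufaf7) to 9.86 (Ndufaf4) for assembly genes and from 12.48 (Ndufs3) to 14.11 (Ndufs8) for core genes. Whether signal level bears on the class medians was not tested. The calls by class shifted with the fit. With the array set as a block, 5 of 6 core, 18 of 27 accessory and 7 of 8 assembly genes were called lower. The share of all genes called lower was 16.7% in that fit. With index and set, 0 of 6 core, 0 of 27 accessory and 1 of 8 assembly genes were called lower, against 1.89% of all genes. After median centring, Ndufs1, Ndufs3, Ndufs8 and Ndufv1 were no longer called (limma adjusted p = 0.0877, 0.0705, 0.0762 and 0.116), which leaves Ndufs7 as the called core gene. Averaging over the probe sets of each gene also left Ndufs8 and Ndufv1 without a call.

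**Figure D2:**
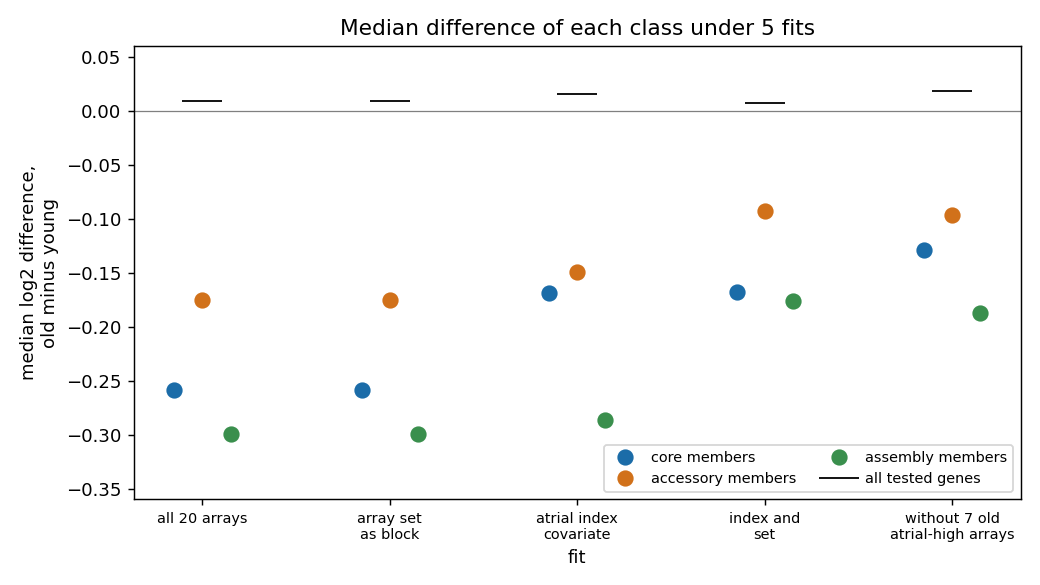
Median log2 difference (old minus young, y axis) of the core, accessory and assembly genes and of all tested genes (dashes) under 5 fits (x axis). Each class stays below 0 in each of them, with the accessory genes between −0.18 and −0.09.

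Ndufs7 and Ndufs8 encode the core subunits that hold the iron-sulphur clusters nearest to the ubiquinone site. Ndufs7 had a lowest, median and highest value of 13.38, 13.71 and 14.06 in old arrays, against 13.93, 13.97 and 14.36 in young arrays. In 7 of the 10 old arrays it lay below every young array, so the groups overlapped in the remaining 3. It fell by 0.33 ± 0.09 (SE; limma adjusted p = 0.0183) (a linear change of −20.4% as the array reads it). The second of its probe sets differed by −0.31 (limma adjusted p = 0.0284 in the fit over probe sets). Ndufs8 had 13.64, 14.16 and 14.35 in old, against 14.08, 14.41 and 14.62 in young, with 4 old arrays below all young ones. It fell by 0.28 ± 0.09 (SE; limma adjusted p = 0.0436), and this call was lost in 13 of 20 leave-one-out fits.

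Ndufv1, Ndufv2 and Ndufs1 belong to the module that oxidises NADH. Ndufv1, whose product binds NADH and the flavin, ran from 12.73 through 13.24 to 13.37 in old arrays, against 13.30 through 13.40 to 13.55 in young ones, and 8 old arrays lay below all young arrays. It fell by 0.24 ± 0.08 (SE; limma adjusted p = 0.0454), and this call too was lost in 13 leave-one-out fits. Ndufs1, the largest subunit and a carrier of iron-sulphur clusters, ran from 12.17 through 12.48 to 12.80 in old, against 12.46 through 12.76 to 13.01 in young. The groups overlapped more widely there, with 3 old arrays below all young ones, and the gene fell by 0.26 ± 0.08 (SE; limma adjusted p = 0.0315; lost in 7 leave-one-out fits). Ndufv2, an iron-sulphur subunit beside Ndufv1, was the core gene that did not pass. Its values were 13.71, 14.05 and 14.10 in old and 14.03, 14.10 and 14.21 in young, a difference of −0.13 with a 95% interval from −0.27 to 0.0050 (limma adjusted p = 0.173). Another of its 3 probe sets did pass, at −0.24 (limma adjusted p = 0.0468 over probe sets).

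Ndufs3, a core subunit at the base of the matrix arm, showed little overlap between the groups. Old arrays ran from 12.00 through 12.55 to 12.60 and young arrays from 12.58 through 12.73 to 12.92. Of the young arrays, 9 lay above every old one. The fall was 0.25 ± 0.08 (SE; limma adjusted p = 0.0305; lost in 2 leave-one-out fits). Without the 7 old arrays the difference of this gene was −0.14, and over the core genes such differences ran from −0.03 for Ndufv2 to −0.32 for Ndufs8. None of the core genes passed the test there (limma adjusted p from 0.21 to 0.893).

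**Figure D3:**
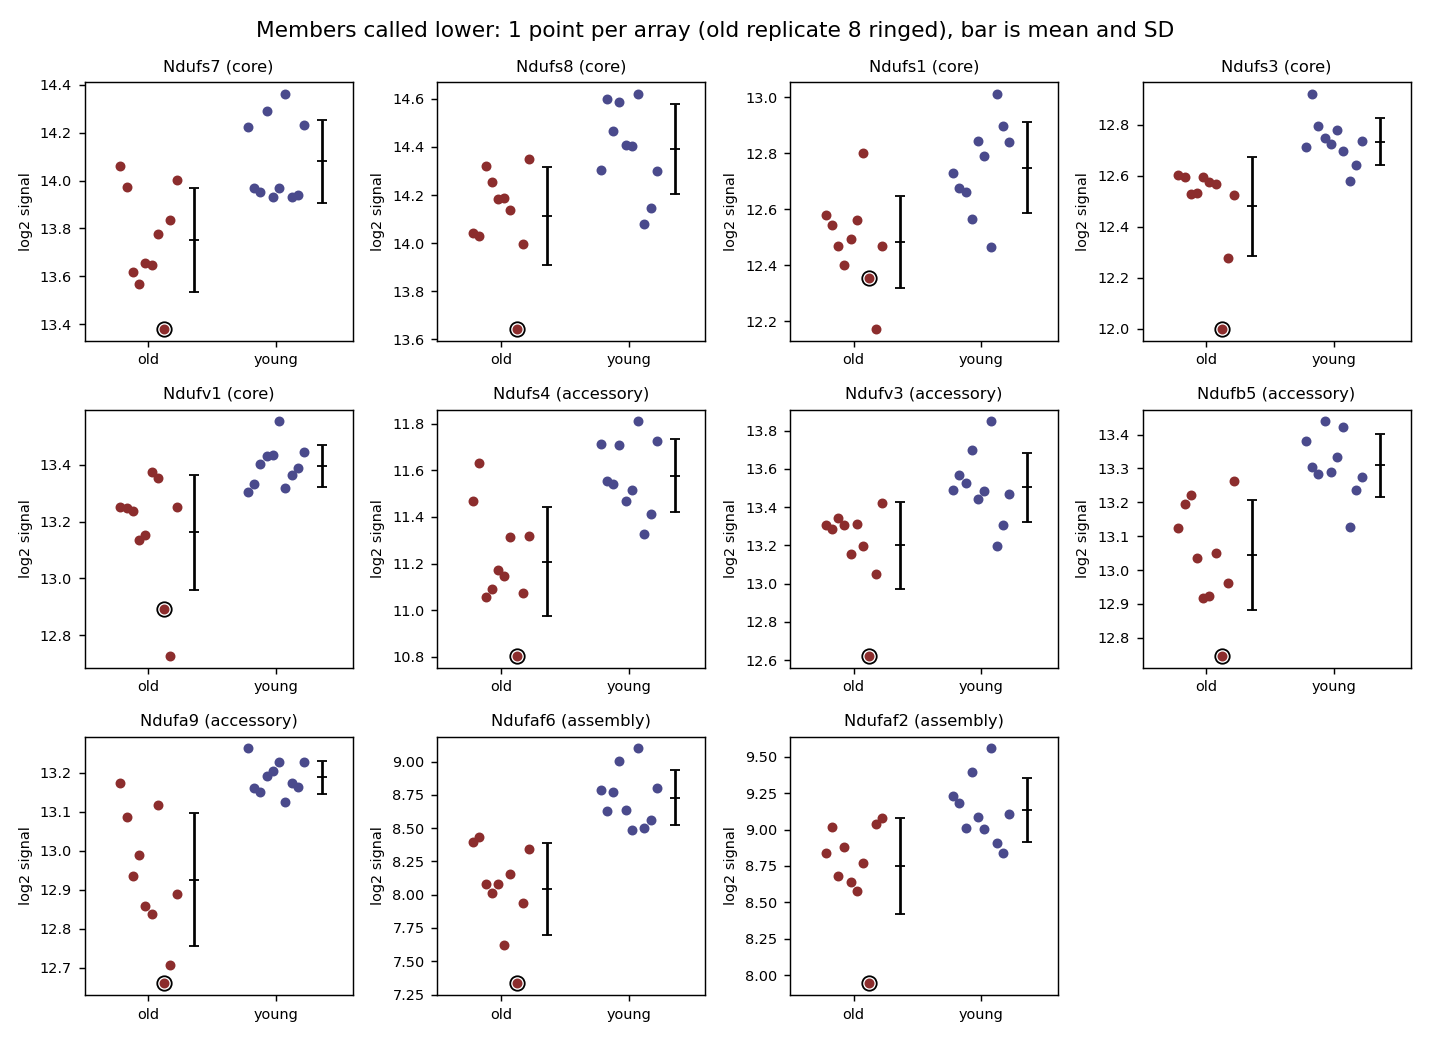
Log2 signal (y axis) of the 11 members called lower, 1 point per array, old left of young, with the mean and SD of each group (n = 10 each) as a bar. Ndufaf6 is the gene without overlap between the groups, and the ringed point, old replicate 8, is the lowest array in 9 of the 11 panels.

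Accessory genes of the matrix arm held 3 of the 4 accessory calls. Ndufs4, whose product fixes the NADH-oxidising module to the rest of the enzyme and whose loss causes a Leigh-like disease in mice, showed the largest fall of any subunit gene. It had 10.80, 11.16 and 11.63 in old arrays, against 11.33, 11.55 and 11.81 in young arrays, with 8 old arrays below all young ones. The fall was 0.37 ± 0.10 (SE; limma adjusted p = 0.00898) (a linear change of −22.7%). All 3 of its passing probe sets were called, at −0.37, −0.47 and −0.64. Ndufa9, which lies where the arms meet near the ubiquinone site, had a narrow range in young arrays. Its values were 12.66, 12.91 and 13.17 in old and 13.13, 13.18 and 13.26 in young, with SDs of 0.17 and 0.04 (n = 10 each), and 9 old arrays lay below all young ones. It fell by 0.26 ± 0.07 (SE; limma adjusted p = 0.0138). Ndufv3, a subunit at the NADH-oxidising tip, ran from 12.62 through 13.30 to 13.42 in old and from 13.20 through 13.49 to 13.85 in young. It fell by 0.30 ± 0.10 (SE; limma adjusted p = 0.0341), with 4 old arrays below all young ones and 8 young arrays above all old ones. The call of Ndufv3 was lost in 5 leave-one-out fits. Over the matrix arm as a whole, 8 of 14 tested core and accessory genes fell and 0 rose (median −0.24). Of all tested genes 7.49% fell and 11.2% rose.

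Accessory genes of the membrane arm held the remaining accessory call. Of all tested genes 7.49% were called lower and 11.2% higher. In the proximal part, next to the matrix arm, 0 of 8 genes were called (median −0.17). In the distal part, which the Ndufb genes encode, 1 of 10 was called (median −0.21). That gene, Ndufb5, had 12.75, 13.04 and 13.26 in old arrays, against 13.13, 13.30 and 13.44 in young arrays, with 7 old arrays below all young ones. It fell by 0.26 ± 0.07 (SE; limma adjusted p = 0.0159), and its second probe set fell by the same 0.26 (limma adjusted p = 0.0271 over probe sets). Ndufb2 lay just outside the threshold at −0.30 (limma adjusted p = 0.0502), followed in size by Ndufb6 at −0.25 (0.0956) and by Ndufc1 of the proximal part at −0.25 (0.118). With the array set as a block 7 of 8 proximal and 7 of 10 distal genes were called lower, where 16.7% of all genes were. Whether the arms differ was not tested.

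The accessory genes without a call all had estimates below 0, from −0.30 for Ndufb2 to −0.08 for Ndufc2. Ndufc2, a membrane arm subunit, had a 95% interval from −0.24 to 0.09 (limma adjusted p = 0.534). Ndufb9, a distal subunit, was at −0.09 (0.351) and Ndufa12, a matrix arm subunit related in sequence to Ndufaf2, at −0.11 (0.268). Ndufab1 encodes the acyl carrier protein, which binds complex I at more than a single place and also serves fatty acid and iron-sulphur synthesis in the matrix. It was at −0.14 (limma adjusted p = 0.266).

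**Figure D4:**
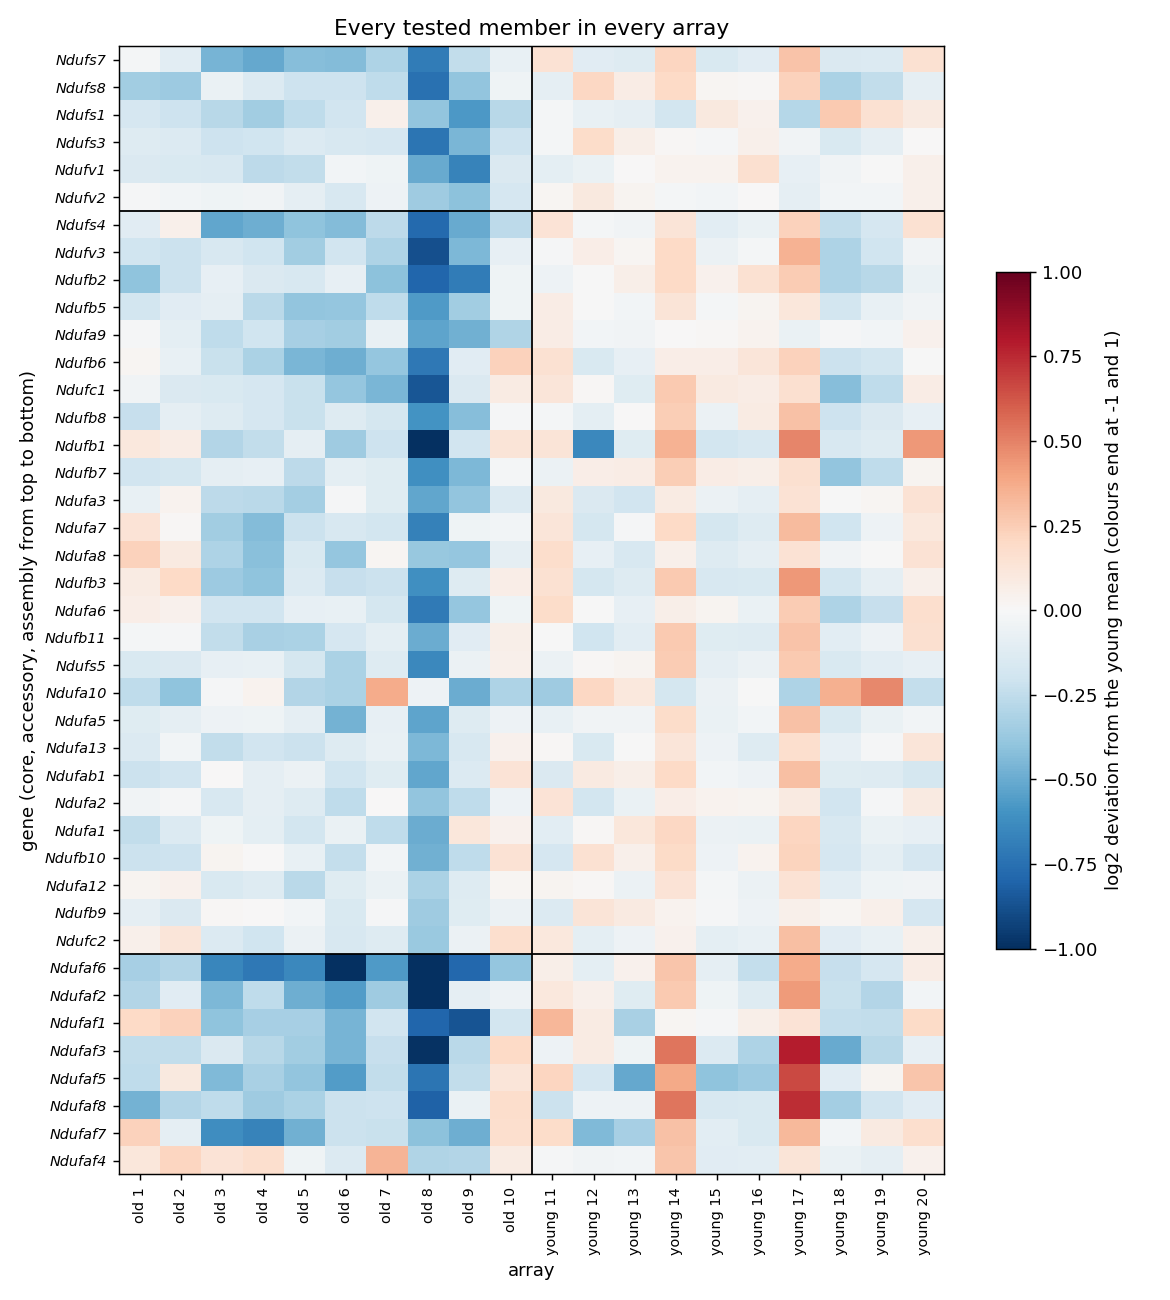
Deviation of each tested gene (rows, core to assembly from top to bottom) from its mean over the young arrays, in log2 units, in each array (columns, old left of young). Old replicates 5, 6 and 8 are below the young mean for all 41 genes, and young replicates 14 and 17 are above it for most.

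Assembly factor genes included the member with the largest fall. Ndufaf6, whose product is needed to bring the mitochondrially encoded ND1 subunit into the complex in human cells, had 7.34, 8.08 and 8.43 in old arrays, against 8.49, 8.70 and 9.10 in young arrays. Every old array lay below every young array. This held for no other member, and 0.42% of all tested genes were separated in this direction and 1.36% in the opposite one. Ndufaf6 fell by 0.69 ± 0.13 (SE; limma adjusted p = 0.000618) (a linear change of −37.9%). It was the member still called with index and set together (limma adjusted p = 0.0367). Its difference was −0.51 with the atrial index alone (limma adjusted p = 0.0745) and −0.40 without the 7 old arrays (limma adjusted p = 0.152).

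Ndufaf2, which binds late intermediates of the complex, ran from 7.94 through 8.81 to 9.08 in old and from 8.84 through 9.10 to 9.56 in young, with 6 old arrays below all young ones. It fell by 0.38 ± 0.12 (SE; limma adjusted p = 0.0339), and the call was lost in 6 leave-one-out fits. The remaining 6 assembly genes were not called. Ndufaf1, part of the intermediate assembly complex of the membrane arm, had 8.88, 9.41 and 9.97 in old and 9.42, 9.79 and 10.08 in young (difference −0.31, limma adjusted p = 0.0941). This gene differed by 0.08 in the opposite direction without the 7 old arrays. Ndufaf5, which hydroxylates an arginine of the Ndufs7 protein, was at −0.30 (0.152), and its partner Ndufaf8 was at −0.28 (0.151). Ndufaf7, an arginine methyltransferase, was at −0.28 (0.131).

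Ndufaf3 and Ndufaf4, whose products work as a pair on the ubiquinone-binding module, stood apart from each other. Ndufaf3 had 7.52, 8.26 and 8.71 in old arrays and 8.01, 8.45 and 9.30 in young arrays, a difference of −0.30 (limma adjusted p = 0.167). Ndufaf4 had 9.53, 9.93 and 10.17 in old and 9.71, 9.80 and 10.11 in young, a difference of 0.03 with a 95% interval from −0.15 to 0.21 (limma adjusted p = 0.866). It was the member with an estimate above 0, although its dimmer probe set was at −0.12 (limma adjusted p = 0.67 over probe sets). No test of the difference between the pair was made.

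Assembly factors that do not carry an Nduf symbol were examined as a list of 14, of which 13 were tested. Of these, 7 fell and 0 rose, and the median was −0.35. Of all tested genes 7.49% fell and 11.2% rose. Ecsit and Tmem126b, partners of Ndufaf1 in the intermediate assembly complex, fell by 0.50 and 0.50 (limma adjusted p = 0.0181 and 0.00158). Their partner Acad9 was at −0.35 (0.134). Foxred1, an oxidoreductase-like factor, fell by 0.48 (0.00432), and Nubpl, which brings iron-sulphur clusters to the complex, fell by 0.48 (0.0167). Timmdc1, a membrane arm factor, fell by 0.39 (0.03), Tmem70, which also serves ATP synthase, by 0.28 (0.0401), and Aifm1, needed for the import of small subunits, by 0.36 (0.0175). Without the 7 old arrays none of the 13 was called and the median was −0.17. In that fit 0.679% of all genes were called lower and 2.25% higher. With the atrial index none was called and the median was −0.33, where 0.927% and 2.81% of all genes were called lower and higher. Of the mitochondrially encoded subunits 1 was measured, ND5 (mt-Nd5), a proton-pumping core subunit. It was at 15.26 ± 0.08 in old arrays and 15.33 ± 0.04 in young arrays (SD, n = 10 each; difference −0.07, limma adjusted p = 0.448). Differences of very bright probe sets can be compressed in these values, which was not tested for ND5.

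Single arrays were also compared over all members. In each array the median deviation of the 41 members from their young means was taken. It ran from −0.60 through −0.19 to −0.04 in old arrays and from −0.16 through −0.03 to 0.23 in young arrays. Old replicate 8 was the lowest at −0.60, with 39 of 41 members below all young arrays, where 27.9% of all tested genes were. Old replicate 10 was the highest old array at −0.04, with 6 of 41 members below all young arrays, where 9.74% of all genes were. The array with the most atrial transcript was this old replicate 10, with an index of 1 (the index is 1 at the highest array). Old replicates 1, 2 and 7, with an index of at most 0.0106, had median deviations of −0.12, −0.10 and −0.17. The 7 old arrays with more atrial transcript had median deviations of −0.16, −0.20, −0.23, −0.21, −0.60, −0.27 and −0.04 (replicates 3, 4, 5, 6, 8, 9 and 10). Replicates 1 and 2 thus lay closer to 0 than 6 of these 7, and replicate 10 lay closest to 0. Replicate 7, also low in atrial transcript, lay further from 0 than replicates 3 and 10. The part of the atrial transcripts in the members' deviations was not tested on these per-array medians.

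**Figure D5:**
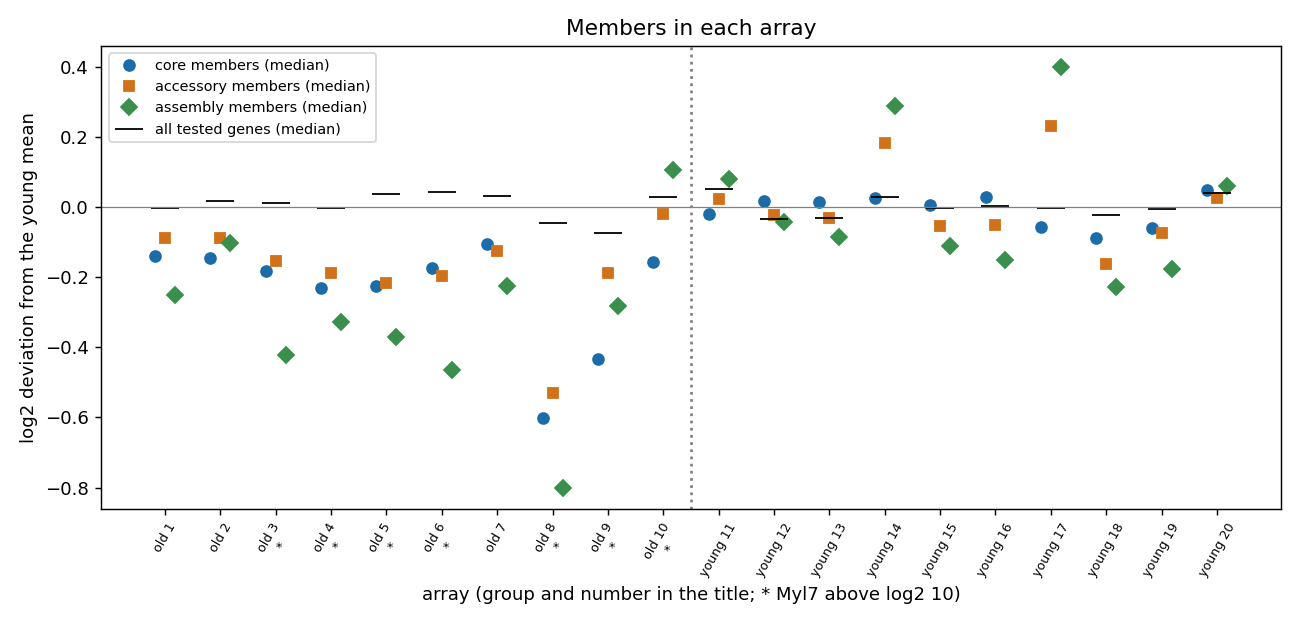
Median deviation from the young mean (log2, y axis) of the core, accessory and assembly genes and of all tested genes (dashes) in each array (x axis, old left of young; stars mark Myl7 above 10). Core medians are below 0 in all 10 old arrays, between −0.60 and −0.11, while young core medians lie between −0.09 and 0.05.

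Of the 3 classes, the core genes had the smallest spread of per-array medians among young arrays (SD 0.05, against 0.12 for accessory and 0.21 for assembly genes, n = 10). The core median ran from −0.60 through −0.18 to −0.11 in old and from −0.09 through 0.01 to 0.05 in young. The groups did not overlap on this measure, but the gap was narrow (old replicate 7 at −0.11, young replicate 18 at −0.09). How often the median of 6 other tested genes separates the groups was not computed. Each core gene taken alone did overlap. The accessory medians (−0.53 to −0.02 in old, −0.16 to 0.23 in young) and the assembly medians (−0.80 to 0.10 in old, −0.23 to 0.40 in young) overlapped. Young replicates 14 and 17, which share an array set, were the high young arrays for accessory genes (0.18 and 0.23) and assembly genes (0.29 and 0.40), whereas their core medians were 0.02 and −0.06. The SD was larger in old than in young for 35 of the 41 members, including all 6 core genes, and for 61.5% of all tested genes. The median SD of the members was 0.20 in old and 0.16 in young arrays.

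Members with an estimate below 0 numbered 35, 39, 40, 40 and 41 of 41 in the 5 sets, each with 2 old and 2 young arrays. In the same order, 56.2%, 44.4%, 45.9%, 48.9% and 52.8% of all tested genes were below 0. All 11 called members and 34 of the 41 tested ones were lower in old in every set. The share of all genes lower in every set was not computed. The 11 calls were made on these same arrays, so their direction in the sets is not a separate check. The members' median lay between −0.12 and −0.33 in the sets, where that of all genes lay between −0.03 and 0.04. In the set of old replicates 1 and 2 with young replicates 11 and 20, no array carried much atrial transcript (index at most 0.0106). There the members' median was −0.12, with −0.17 for core, −0.10 for accessory and −0.20 for assembly genes, and Ndufaf6 was at −0.38, Ndufs7 at −0.21 and Ndufs4 at −0.17. With 2 arrays per group in a set these are values without a test.

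Several probe sets for a gene give a check within the arrays, although they read the same RNA. Of the 78 member probe sets that passed the filter, 76 had an estimate below 0 and 18 were called lower, with 0 called higher, in a fit over 15304 probe sets of which 5.91% were called lower and 8.89% higher. Of the 21 members with more than 1 such probe set, 19 had all of them below 0. The exceptions were Ndufaf4 and Ndufc2, whose 4 probe sets ran from −0.08 to 0.08. In 3 members every probe set was called (Ndufs4, Ndufs7 and Ndufb5). In 5 members the probe sets differed in call, namely Ndufv2 and the accessory genes Ndufa3, Ndufa7, Ndufa10 and Ndufab1. Ndufa10, a subunit of the proximal membrane arm, had the widest split, at −0.58 (limma adjusted p = 0.0207 over probe sets) and −0.17 (0.38). In that fit the representative probe sets of Ndufs8 and Ndufv1 were just outside the threshold (limma adjusted p = 0.0516 and 0.052). No other passing probe set of either gene was called there (limma adjusted p from 0.0737 to 0.338). After averaging over the probe sets of each gene, Ndufs8 was at −0.25 and Ndufv1 at −0.23. Neither was called (limma adjusted p = 0.0981 and 0.0725). The count of members called lower was 11 there too, with Ndufa3 and Ndufa10 gained.

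The sequence before the transcription start was examined because most members had estimates of the same sign. Nuclear respiratory factor NRF1, oestrogen-related receptors (ERR), GABP of the ETS family and YY1 are known regulators of respiratory chain genes. RefSeq promoter windows (GRCm38.p6) were found for 38 of the 42 members, and the 250 bases before the start were searched on both strands for GCGCA, any base and GCGC in a row (NRF1), AAGGTCA (ERR), CCGGAAG (ETS factors such as GABP) and AAGATGG (YY1). A gene with more than 1 window was counted once. The NRF1 letters were found for 5 of the 38 members (13.2%, against 4.23% of 27025 genes with a window). ERR letters were found for 3 members (7.89%, against 4.7%), ETS letters for 5 (13.2%, against 7.83%) and YY1 letters for 0 of 38 (against 5.18%). Of the 9 called members with a window, 1 held any of these, Ndufs3. Such matches are descriptions of letters in a short window, and no match says only that the letters are absent there. The windows below belong to the core and the accessory gene with the largest fall (Ndufs7 and Ndufs4), to the called gene with a match (Ndufs3) and, for contrast, to Ndufs5, an uncalled gene that holds 2 matches. They read 5′ to 3′ in the direction of the gene, with motif matches in capitals. None of these matches overlap. The windows lie at chr10:80249199-80249448 (Ndufs7, plus strand), chr13:114388095-114388344 (Ndufs4, minus strand), chr2:90904722-90904971 (Ndufs3, minus strand) and chr4:123718187-123718436 (Ndufs5, minus strand).
Ndufs7: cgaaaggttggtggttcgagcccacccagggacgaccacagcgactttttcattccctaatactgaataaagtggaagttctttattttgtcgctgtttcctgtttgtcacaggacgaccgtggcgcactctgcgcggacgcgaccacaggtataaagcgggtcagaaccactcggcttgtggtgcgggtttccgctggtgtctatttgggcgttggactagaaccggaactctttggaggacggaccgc
Ndufs4: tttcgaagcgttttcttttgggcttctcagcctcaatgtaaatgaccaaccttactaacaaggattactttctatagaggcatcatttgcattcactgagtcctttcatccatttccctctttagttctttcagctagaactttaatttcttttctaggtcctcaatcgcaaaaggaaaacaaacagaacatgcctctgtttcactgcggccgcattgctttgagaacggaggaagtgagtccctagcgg
Ndufs3: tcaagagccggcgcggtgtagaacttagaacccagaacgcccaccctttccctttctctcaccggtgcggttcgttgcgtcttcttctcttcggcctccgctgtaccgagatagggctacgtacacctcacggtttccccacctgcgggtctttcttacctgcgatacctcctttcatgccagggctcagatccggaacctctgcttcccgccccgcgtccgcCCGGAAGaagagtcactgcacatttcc
Ndufs5: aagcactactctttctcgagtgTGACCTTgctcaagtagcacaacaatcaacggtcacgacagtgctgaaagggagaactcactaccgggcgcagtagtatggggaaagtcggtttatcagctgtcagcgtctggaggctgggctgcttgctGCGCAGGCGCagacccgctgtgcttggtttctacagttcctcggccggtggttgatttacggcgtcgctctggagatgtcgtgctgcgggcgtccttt
Ndufs3 has an ETS match on the strand shown, close to the start. In Ndufs5 the ERR match lies on the opposite strand at the far end of the window and the NRF1 match in its middle part. Ndufs5 was at −0.17 (limma adjusted p = 0.171).

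The other respiratory complexes are given for comparison, from lists of their nuclear subunit genes. Complex II, which feeds electrons from succinate, had 1 of 4 tested genes lower and a median of −0.23. Complex III had 2 of 9 lower and a median of −0.19, and complex V, ATP synthase, 1 of 18 and −0.10. In complex IV, cytochrome c oxidase, 1 of 12 fell and 1 rose, with a median of −0.06. The Nduf members, which include assembly factors, had 11 of 41 lower and a median of −0.22. Their core and accessory subunit genes alone, the set like the other lists, had 9 of 33 lower and a median of −0.19. Over all tested genes 7.49% were called lower and 11.2% higher, with a median of 0.01. No test of the differences between complexes was made here. Without the 7 old arrays the median was −0.11 for all Nduf members and −0.11 for their core and accessory genes. It was −0.12 for complex II, −0.0082 for complex III, −0.0030 for complex IV and −0.06 for complex V. Ndufa4, left out of the members because its product is a subunit of cytochrome c oxidase, was at −0.14 (limma adjusted p = 0.457). Ndufa4l2, a hypoxia-induced relative, was below a log2 value of 4 in all arrays, at 2.98 ± 0.59 in old arrays and 2.98 ± 0.31 in young arrays (SD, n = 10 each), and was not tested.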

How the data were processed

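Total RNA of 20 ventricles was hybridised to 1 array each, per the labels' protocols. Groups were taken from the sample titles; series text that names old mice young as well was taken for an error. The authors deposited 1 log2 value per probe set and array, made with GCRMA (background correction by probe sequence, normalization and summary) per the submitters' processing notes; its version is not given in the sources used here and the values' range fits a log2 scale. GCRMA can compress differences of very dim and very bright probe sets.

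Of 45101 probe sets, 34945 had 1 gene in the platform annotation, 932 several, 9160 were unnamed here and 64 were controls; 34741 were updated by gene identifier to GRCm38.p6 names. 10 probe sets with an Nduf symbol had several genes and were not used. A probe set passed with a log2 value above 4 in at least 10 arrays, and the passing probe set of highest mean stood for its gene, leaving 9275 genes. Differences (old minus young) were tested with limma (3.58.1, lmFit and eBayes, R 4.3.3), no covariate, Benjamini-Hochberg adjustment over all genes; every adjusted p is from limma. Precision is limited by the 20 arrays. The fit was tested on simulated data. For the atrial index, linear Myl7 and Sln signals were each scaled to the array where they were highest and averaged. Array sets came from average linkage clustering (cluster 2.1.8.1) of residual correlations. Because the sets were found on these values, block p-values may be too small. Called, core and assembly members were named with values by group; of the other accessory members, those with the smallest or largest differences or disagreeing probe sets were named, and Ndufs5 for its promoter, chosen after its values were seen. Members, lists, tests and alternatives were chosen with earlier results of these data known.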

Additional observations from a re-analysis of the deposited data

Results flagged for a closer look

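The spread of each tested member within each age group was examined with Dixon's ratio, which compares the gap of the highest or lowest array with the range of its group of 10 arrays. Of 82 combinations of 41 genes and 2 groups, 7 had an array standing apart, and chance alone gives about 1 in 20. In 6 of the 7 the array was old replicate 8, always as the lowest. It was at 7.94 for Ndufaf2 (next old array 8.58), 6.23 for Ndufb1 (6.96), 13.76 for Ndufb9 (13.97), 12.38 for Ndufs5 (12.70), 13.64 for Ndufs8 and 12.62 for Ndufv3 (13.05). The 7th was Ndufc2 in young replicate 17, at 13.66 as the highest young array (next 13.46). Old replicate 8 also stood out in the share of its probe sets that exceeded 4, at 40.2%, where the other arrays had between 37.8% and 39.0%. Without it, Ndufaf2 was at −0.30 and Ndufv3 at −0.24, both still called, and Ndufs8 at −0.23, Ndufs1 at −0.25 and Ndufv1 at −0.21 were no longer called (limma adjusted p = 0.0747, 0.0501 and 0.0795).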

How the results depend on the processing

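No paired analysis was possible because the groups share no replicate number. Over all genes, 1732 were called, and 4345 with no filter, 347 with the atrial index, 3344 with the array set as a block, 579 with both and 272 without the 7 old arrays; leaving out 1 array gave 1391 to 1830. Of the calls 59.9% were rises, against 43.2% after quantile normalization and 29.9% with no filter. The 11 falls among Nduf members became 5 after median centring, 14 after quantile normalization, 16 with no filter, 30 with the set, 0 with the index, 1 with both and 0 without the 7 arrays, and 6 to 13 when 1 array was left out; 0 members rose under any setting run. In median centring Ndufaf2, Ndufs1, Ndufs3, Ndufs8, Ndufv1 and Ndufv3 were lost. The core median of −0.26 was −0.13 without the 7 arrays. Leaving out 1 array moved the medians between −0.27 and −0.22 for core, −0.21 and −0.14 for accessory and −0.34 and −0.23 for assembly genes. Single genes changed sign without the 7 arrays (Ndufa12 0.00060, Ndufa8 0.11, Ndufaf1 0.078, Ndufb3 0.022, Ndufc2 0.016), with index and set (Ndufa5 0.0015), and for Ndufaf4 with the mean of its probe sets (−0.048) or without old replicate 7 (−0.0068, against up to 0.064 without old replicate 8). The causes were not tested. Only 3 old arrays remain in the fit without the 7, so its intervals are wider.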
